A study of Mus musculus with 24 samples.

Results

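The late response of T cells that lack Raptor was set against that of wild-type T cells, with 16 of the series' 24 arrays. The measure was an interaction: the change between 8 h and 24 h of stimulation in Raptor-deficient cells minus the same change in WT cells. It is a log2 difference of array intensities. It was computed for 17097 genes and is the same number as the genotype difference at 24 h minus the genotype difference at 8 h. A positive value means that Raptor-deficient cells gained on WT cells between the 2 times, and a negative value that they lost ground.

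The arrays fell into 4 groups of 4 samples, namely Raptor-deficient and WT cells at 24 h and Raptor-deficient and WT cells at 8 h. Raptor-deficient cells came from CD4(cre)Raptor(fl/fl) mice, in which Cre recombinase driven by the Cd4 promoter acts on floxed Raptor alleles in T cells. WT cells came from C57BL/6 mice. In all 4 groups naive CD4+ T cells were sorted from spleen and peripheral lymph nodes as CD4+CD62LhiCD44loCD25- cells, and they were stimulated with plate-bound antibodies against CD3 and CD28. The other 8 arrays, of unstimulated cells, entered an alternative fit and give a starting level where stated. The labels do not state whether replicates are different animals. The p-values therefore reflect sample-to-sample spread, which may be technical.

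Raptor is the subunit that recruits substrates to the kinase complex mTORC1. This complex couples growth factor, antigen receptor and nutrient signals to protein synthesis, glycolysis, mitochondrial biogenesis and the synthesis of sterols and fatty acids. In a naive T cell, antigen receptor and CD28 signals end quiescence: the cell first grows and remodels its metabolism, then replicates its DNA and divides. At 8 h cells are in the growth phase, and by 24 h many of them enter the cell cycle.

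A gene was called at a limma adjusted p under 0.05, and called genes were sorted by the genotype difference at each time. A gene caught up when its interaction was positive and it was lower in Raptor-deficient cells at 8 h. It fell further behind when its interaction was negative and it was lower in Raptor-deficient cells at 24 h. In the remaining genes an excess over WT grew or shrank. The difference at 8 h and the interaction share the 8 h samples, and the difference at 24 h shares the others with it, so a chance deviation in one group enters both measures. The classes therefore describe the shape of a called interaction and give no second line of evidence.

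The targeted gene, Rptor, was checked first. At 24 h Rptor was 6.25, 6.60, 6.45 and 6.48 in Raptor-deficient samples, against 7.07, 6.91, 7.15 and 7.21 in WT samples. At 8 h it was 6.41, 6.27, 6.50 and 6.79 in Raptor-deficient samples, against 7.49, 7.51, 7.57 and 7.46 in WT samples. Both times the groups did not overlap, with Raptor-deficient minus WT differences of -0.64 ± 0.10 (SE) at 24 h and -1.01 ± 0.10 at 8 h. The interaction of Rptor was 0.38 ± 0.14 (adjusted p = 0.142), which did not pass. Where its 2 probe sets lie relative to the deleted part was not analysed here.

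Cd4, which marks helper T cells, and Cd3g, a chain of the CD3 complex of all T cells, stood between 9.71 and 11.32 in all 24 samples, far above the median gene level of 5.51. Replicates of a stimulated group correlated with r of at least 0.992 across genes. The mean of 22 liver genes was 5.97 in replicate 1 of the Raptor-deficient group and 5.86 in replicate 1 of the WT group at 24 h, against 4.08 to 4.17 in the other 14 stimulated samples. The mean of 15 B cell genes was 5.26 to 5.85 in Raptor-deficient and 4.90 to 5.12 in WT samples at 24 h, and 5.25 to 5.61 in Raptor-deficient and 5.02 to 5.11 in WT samples at 8 h. The mean of 17 myeloid genes was 4.43 to 4.55 in Raptor-deficient and 4.40 to 4.44 in WT samples at 24 h, and 4.59 to 4.75 in Raptor-deficient and 4.37 to 4.47 in WT samples at 8 h. No liver, B cell or myeloid gene of these lists was called in the interaction by limma, where 0, 1 and 4 of them had an unadjusted p under 0.05, and the part of such cells in the results below was not tested. In bulk RNA, fewer cells of a type and less RNA per cell cannot be told apart.

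The interaction was called for 1155 genes, which is 6.76% of those tested. It was positive for 447 genes (2.61%) and negative for 708 (4.14%), and it reached 1 on the log2 scale in either direction for 271 (1.59%). The largest class was that of genes which fell further behind, with 653 genes (3.82% of those tested), and a further 230 genes (1.35%) caught up. An excess of Raptor-deficient over WT cells grew for 205 genes (1.20%) and shrank for 47 (0.275%), while 20 (0.117%) could not be sorted. For comparison, the genotype difference was called for 4550 genes (26.6%) at 24 h and for 3097 genes (18.1%) at 8 h. A group of 1198 genes (7.01%), more than the 1155 with an interaction call, was lower in Raptor-deficient cells at both times without such a call.

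**Figure D1:**
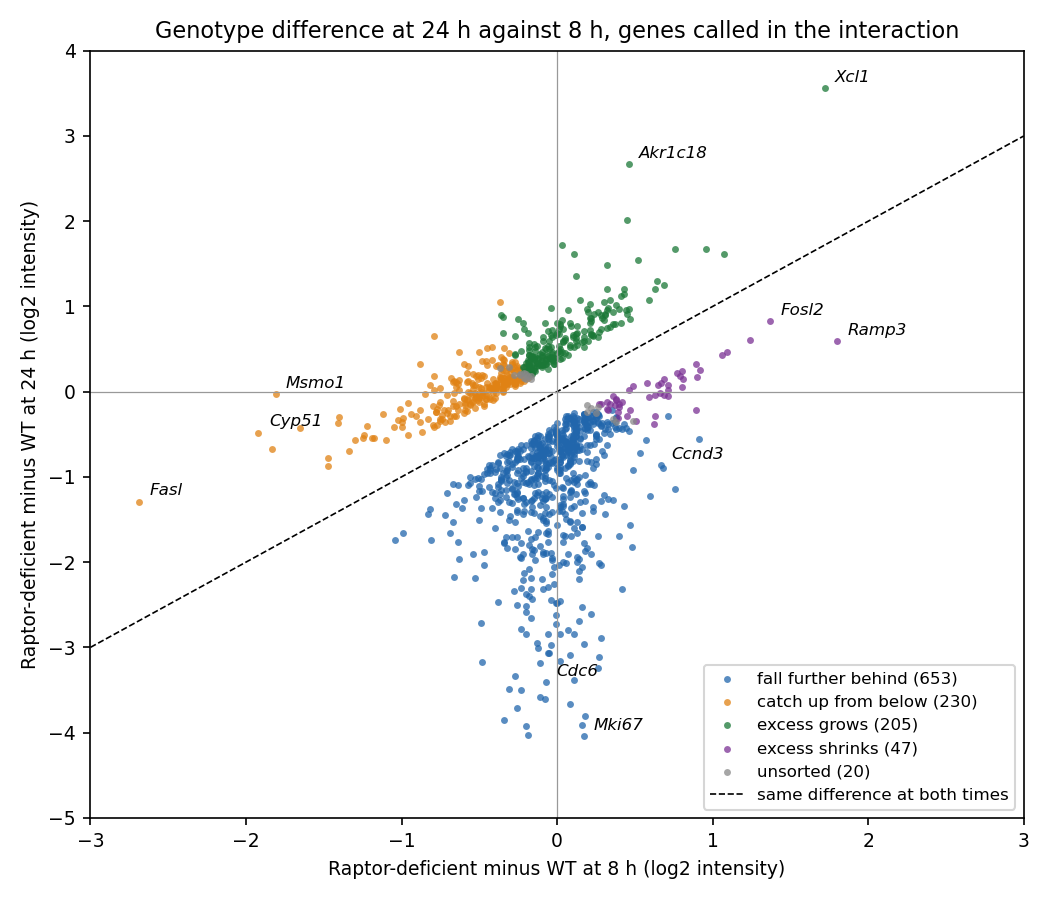
Genotype difference at 24 h (vertical axis) against that at 8 h (horizontal axis), both Raptor-deficient minus WT in log2 intensity, for the 1155 genes called in the interaction, coloured by class. Points on the dashed line would have the same difference at both times. The 653 genes that fell further behind lie below the line, most of them near a difference of 0 at 8 h, and the 230 that caught up lie above it on the left.

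Most genes that fell behind had no called difference at 8 h. Of the 653 genes, 522 showed no called difference at 8 h, 92 were already lower then, and 39 had been higher. In 312 of them WT cells rose while the change in Raptor-deficient cells was not called, and in 283 both genotypes rose. Over all genes, 27.6% changed in Raptor-deficient cells (17.7% rose and 9.92% fell) and 33.1% in WT cells (19.6% rose and 13.4% fell). The median change of the 653 between 8 h and 24 h was 0.226 in Raptor-deficient and 1.12 in WT cells, on the log2 scale. A fall in Raptor-deficient cells was rare, with 34 genes that fell there without a called change in WT and 17 that fell there and rose in WT.

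Catching up had more than one shape. Of the 230 genes, 149 no longer differed by the test at 24 h, 45 were still lower and 36 had become higher in Raptor-deficient cells. Raptor-deficient cells rose and WT did not pass for 92 genes, and both rose for 61. For another 53 genes WT cells fell while Raptor-deficient cells had no called change, and for 20 Raptor-deficient cells rose as WT cells fell. So a gap could close through a rise in Raptor-deficient cells, a fall in WT cells, or both.

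Cell cycle genes fell further behind. Of 77 measured genes of mitosis and G2, 71 had a negative interaction (background 4.14%) and none a positive one, and of 57 genes of DNA replication and S phase 51 did and none was positive. At an unadjusted p under 0.05 there were 1 and 0 positive. The median interaction was -2.04 for mitosis and G2 and -1.08 for DNA replication and S phase, against 0.01 over all genes. At 24 h 74 of the 77 and 56 of the 57 were lower in Raptor-deficient cells (background 16%), against 5 and 19 at 8 h (background 12.2%). In the fits that each left out 1 sample, 70 to 72 members of mitosis and G2 and 50 to 52 of DNA replication and S phase had a negative call.

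The mean level of the mitosis and G2 list shows this sample by sample. At 24 h it was 5.93, 5.90, 6.01 and 5.94 in Raptor-deficient samples, against 7.88, 7.94, 8.03 and 7.99 in WT samples. Its 8 h levels were 5.62, 5.60, 5.56 and 5.57 in Raptor-deficient samples, against 5.60, 5.58, 5.60 and 5.56 in WT samples. The genotypes were far apart at 24 h and overlapped at 8 h. The mean of the DNA replication and S phase list was 7.23, 7.15, 7.43 and 7.26 in Raptor-deficient samples at 24 h, against 8.73, 8.75, 8.83 and 8.81 in WT samples. At 8 h that mean was 6.37 to 6.40 in Raptor-deficient and 6.51 to 6.60 in WT samples. The replication list did not overlap between the genotypes at either time.

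Mki67, which encodes the proliferation antigen Ki-67, had the largest interaction by absolute size of any named gene. At 24 h Mki67 was 6.91, 6.67, 7.19 and 6.99 in Raptor-deficient samples, against 11.02, 10.96, 10.97 and 10.97 in WT samples. The 8 h values were 5.38, 5.29, 5.11 and 5.52 in Raptor-deficient samples, against 5.0, 4.65, 5.82 and 5.16 in WT samples. At 24 h the groups were separate, with Raptor-deficient samples between the 8 h level and the WT level, and at 8 h they overlapped. The interaction was -4.21 ± 0.24 (SE, adjusted p = 4.93e-10). Unstimulated means were 5.69 in Raptor-deficient and 5.54 in WT cells.

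Aurkb, the catalytic kinase of the chromosomal passenger complex, rose far less in Raptor-deficient than in WT cells. It was 4.26, 4.22, 4.55 and 4.14 in Raptor-deficient samples at 24 h, against 8.12, 8.28, 8.20 and 8.20 in WT samples. At 8 h the values were 3.89, 4.09, 3.95 and 3.99 in Raptor-deficient and 3.76, 4.0, 3.73 and 3.78 in WT samples. Its change between 8 h and 24 h was 0.31 in Raptor-deficient and 4.38 in WT cells, with an interaction of -4.07 ± 0.13 (SE, adjusted p = 1.95e-13). Birc5, which encodes survivin in the same complex, had an interaction of -3.84 ± 0.16 (SE, adjusted p = 4.59e-12). Its Raptor-deficient samples were at 5.70 to 5.98 and its WT samples at 9.73 to 10.13 at 24 h.

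Ccna2 encodes cyclin A2, which acts in S phase and at mitotic entry. At 24 h it was 6.25, 5.89, 5.79 and 5.79 in Raptor-deficient samples, against 9.52, 9.46, 9.58 and 9.55 in WT samples, and at 8 h 5.46, 5.30, 5.20 and 5.42 in Raptor-deficient and 5.20, 5.36, 5.72 and 5.41 in WT samples. The change over that time was 0.58 in Raptor-deficient and 4.10 in WT cells, and the interaction was -3.52 ± 0.16 (SE, adjusted p = 1.17e-11). Cenpf, a kinetochore protein, showed the same form with an interaction of -3.73 ± 0.18 (SE, adjusted p = 2.97e-11), as did the midbody protein gene Cep55 at -3.51 ± 0.21 (SE, adjusted p = 6.26e-10). Esco2, a cohesin acetyltransferase of S phase, stayed at 2.13 to 2.65 in Raptor-deficient samples at 24 h, against 5.95 to 6.56 in WT samples. Its change in Raptor-deficient cells did not pass (adjusted p = 0.498), and its interaction was -3.72 ± 0.18 (SE, adjusted p = 3.38e-11).

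E2f8, a repressor of the E2F family that is itself induced in S phase, was 4.96, 4.83, 5.09 and 4.88 in Raptor-deficient samples at 24 h, against 8.68, 8.69, 8.85 and 8.79 in WT samples. At 8 h its values were 4.44, 4.54, 4.53 and 4.62 in Raptor-deficient and 4.04, 4.50, 4.61 and 4.23 in WT samples, which overlapped. The interaction of E2f8 was -4.0 ± 0.15 (SE, adjusted p = 2.09e-12). Clspn, the replication checkpoint adaptor claspin, had -3.49 ± 0.13 (SE, adjusted p = 2.9e-12), and Cdc6, which loads the replicative helicase onto origins, had -3.34 ± 0.25 (SE, adjusted p = 2.27e-08). Cdc6 reached 6.08, 5.26, 6.20 and 5.74 in Raptor-deficient samples at 24 h, against 9.07, 9.18, 9.42 and 9.24 in WT samples. Many of these genes were under 5.51 at 8 h, the median level over all genes, so their folds are those of measured intensities near the lower end of the scale.

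Subunits of the replicative helicase had smaller interactions than the S phase genes above. Mcm5 was 8.54, 8.74, 8.78 and 8.66 in Raptor-deficient samples at 24 h, against 9.82, 9.94, 9.98 and 10.06 in WT samples. Levels at 8 h were 6.92, 7.06, 6.67 and 6.98 in Raptor-deficient and 7.50, 7.58, 7.60 and 7.36 in WT samples. It was lower in Raptor-deficient cells both times without overlap, and it rose by 1.77 in Raptor-deficient and 2.44 in WT cells. Its interaction was -0.67 ± 0.13 (SE, adjusted p = 0.00208), and with all 24 samples in the fit the adjusted p was 0.0562. Mcm6 and Mcm2 were lower at both times as well, with interactions of -0.36 (adjusted p = 0.0839) and -0.20 (adjusted p = 0.452) that did not pass, although Mcm6 passed under 3 of 10 alternative settings. The interactions of Mcm3, Mcm4 and Mcm7 were -0.92, -0.83 and -0.92, and those of the helicase activators Cdc45 and Mcm10 were -1.98 and -2.23. These helicase genes were singled out after their values were seen.

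The 6 members of the S phase list without a call were Mcm2, Mcm6, Orc1, Pold2, Rpa3 and Dut. Of the mitosis list, Cdc25b, Bub3, Ckap5, Pttg1, Tubb5 and Tuba1b had no call, and Smc4 was a gene whose excess shrank, with a call that held in 11 of the 16 fits that each left out 1 sample. Pttg1, which encodes securin, averaged 9.12 ± 0.11 in Raptor-deficient and 8.99 ± 0.15 in WT cells at 24 h (SD, n = 4 each). Tubb5 and Tuba1b encode tubulins that are used outside mitosis too, and their interactions were -0.22 and -0.11.

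The size of the late rise differed between the lists. Among 643 genes that rose by at least 1 on the log2 scale in WT cells, the median ratio of the Raptor-deficient to the WT change was 0.51, with quartiles of 0.23 and 0.79. For 54 of them in the DNA replication and S phase list it was 0.41, for 65 in the mitosis and G2 list 0.11, and for 514 in no cell cycle list 0.59. Choosing the genes on WT cells lowers such a ratio. Among 354 genes chosen in the same way on Raptor-deficient cells the median was 1.10, and it was 0.69 for 91 genes that fell in WT cells and 1.16 for 66 that fell in Raptor-deficient cells.

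**Figure D2:**
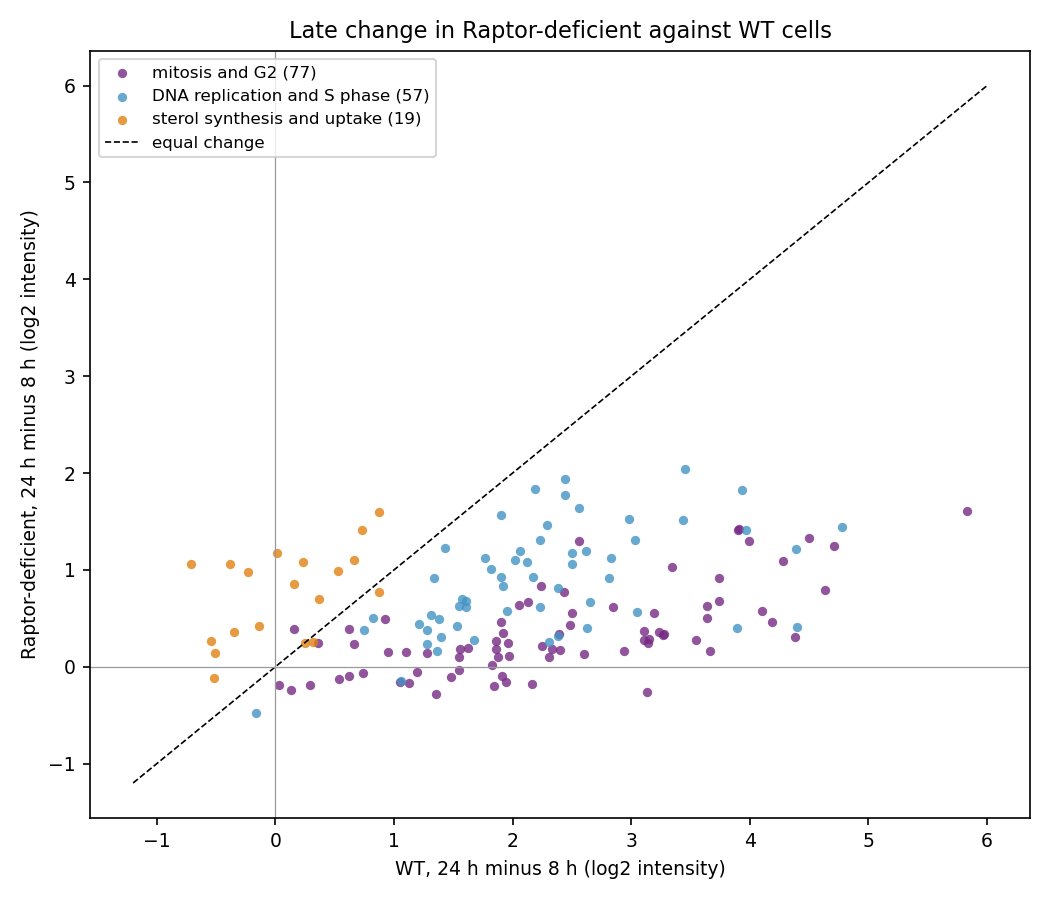
Change between 8 h and 24 h in Raptor-deficient cells (vertical axis) against the same change in WT cells (horizontal axis), in log2 intensity, for 77 genes of mitosis and G2, 57 of DNA replication and S phase and 19 of sterol synthesis and uptake. Nearly all cell cycle genes lie below the dashed line of equal change, with mitosis genes closest to no change in Raptor-deficient cells, while most sterol genes lie on or above it.

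Promoter sequences are shown for 4 of these genes because cell cycle genes are known to carry elements there that are bound by E2F, DREAM and NF-Y complexes. RefSeq promoter windows of build GRCm38.p6, 250 bases before to 50 after a start site, were searched on both strands for the same motifs in every gene, and overlapping matches were each counted. The E2F motif was taken as TTTCCCGC, TTTCGCGC, TTTGCCGC or TTTGGCGC, the cell cycle homology region (CHR) as TTTGAA, and the CCAAT box as CCAAT. Capitals mark the matches. Mki67 lies at chr7:135716330-135716629 and Cenpf at chr1:189688037-189688336, both on the minus strand. Cdc6 lies at chr11:98907901-98908200 on the plus strand, and Mcm6, printed as an S phase gene without an interaction call, at chr1:128359656-128359955 on the minus strand.
Mki67: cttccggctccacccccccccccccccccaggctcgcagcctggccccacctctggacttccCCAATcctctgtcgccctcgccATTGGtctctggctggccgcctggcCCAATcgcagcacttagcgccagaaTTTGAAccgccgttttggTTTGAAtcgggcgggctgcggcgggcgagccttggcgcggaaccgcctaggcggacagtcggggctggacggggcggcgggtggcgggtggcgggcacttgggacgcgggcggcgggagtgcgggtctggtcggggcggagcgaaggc
Cenpf: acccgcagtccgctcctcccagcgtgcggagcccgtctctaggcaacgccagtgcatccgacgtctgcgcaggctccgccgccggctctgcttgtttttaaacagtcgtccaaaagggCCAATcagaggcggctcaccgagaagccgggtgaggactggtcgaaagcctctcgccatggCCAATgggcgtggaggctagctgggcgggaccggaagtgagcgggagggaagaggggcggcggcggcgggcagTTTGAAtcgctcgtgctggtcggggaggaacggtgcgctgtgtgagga
Cdc6: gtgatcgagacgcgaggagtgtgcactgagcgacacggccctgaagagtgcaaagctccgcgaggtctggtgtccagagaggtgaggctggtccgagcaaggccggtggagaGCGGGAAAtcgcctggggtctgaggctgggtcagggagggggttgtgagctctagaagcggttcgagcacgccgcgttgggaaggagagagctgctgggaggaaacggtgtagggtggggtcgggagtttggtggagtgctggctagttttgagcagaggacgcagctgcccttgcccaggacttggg
Mcm6: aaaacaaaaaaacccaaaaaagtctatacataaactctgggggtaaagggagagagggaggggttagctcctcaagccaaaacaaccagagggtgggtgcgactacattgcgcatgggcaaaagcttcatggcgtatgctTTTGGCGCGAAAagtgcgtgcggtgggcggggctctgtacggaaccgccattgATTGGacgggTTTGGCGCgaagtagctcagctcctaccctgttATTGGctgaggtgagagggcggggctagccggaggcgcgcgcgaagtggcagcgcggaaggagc

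The window of Mki67 holds 2 CHR and 3 CCAAT matches, that of Cenpf 1 CHR and 2 CCAAT matches, and that of Cdc6 1 E2F match alone. The window of Mcm6 holds 3 E2F matches, 2 of which overlap, and 2 CCAAT matches. Not every gene that fell behind has such a match: the window of Birc5 holds none of the 3, and that of E2f8 holds 1 CHR and 1 CCAAT match but no E2F match. CHR was found in 44 of 64 mitosis and G2 genes with a window (68.8%), against 15.6% of the 13605 tested genes with one. E2F was found in 19 of 48 DNA replication and S phase genes (39.6%) and in 9.38% of mitosis and G2 genes, against 3.79% of all tested genes. Among genes that fell further behind, the shares were 15.2% for E2F and 23.9% for CHR, and among genes that caught up 3.50% and 12%. Mcm6 shows that an E2F match was also present where the interaction was not called. These are matches of letters in a window.

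Regulators of G1, the phase before DNA replication, were mixed. Of 24 measured, 11 had a negative and 1 a positive interaction (background 4.14% and 2.61%). Ccnd3, which encodes the D-type cyclin of lymphocytes, changed places. At 24 h Ccnd3 was 7.83, 7.81, 8.00 and 7.92 in Raptor-deficient samples, against 8.72, 8.74, 8.85 and 8.68 in WT samples. At 8 h it was 8.09, 8.14, 7.97 and 8.19 in Raptor-deficient samples, against 7.58, 7.39, 7.43 and 7.33 in WT samples. Every Raptor-deficient sample was below every WT sample at 24 h and above every one at 8 h, and the interaction was -1.52 ± 0.11 (SE, adjusted p = 8.33e-09). Of its 2 probe sets, 1 was called. Ccnd2, another D-type cyclin gene, had an interaction of 0.32 ± 0.10 (SE, adjusted p = 0.0709), which did not pass. Of the 6 probe sets of Ccnd2, 5 were called, all positive. The gene passed under 4 of 10 alternative settings and in 1 of the 16 fits that each left out 1 sample. Positive calls in the list numbered 3 with the mean of all probe sets, and 2 with array medians centred or a filter on dim genes.

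Other G1 genes opened a gap at 24 h. E2f3, an activating E2F factor, had an interaction of -1.68 ± 0.15 (SE, adjusted p = 2.93e-07), with Raptor-deficient samples at 6.23 to 6.54 and WT samples at 8.22 to 8.30 at 24 h. Skp2, which targets the inhibitor p27 for degradation, rose by 1.26 in WT cells and had a change of 0.08 (adjusted p = 0.675) in Raptor-deficient cells. Its interaction was -1.18 ± 0.16 (SE, adjusted p = 7.3e-05). Cdkn1b, the gene for p27 itself, was higher in Raptor-deficient cells by 0.71 ± 0.15 at 24 h and 0.68 ± 0.15 at 8 h, so its interaction was 0.03 (adjusted p = 0.973). Cdkn1a, the gene for the inhibitor p21, was the positive call of the main fit. It was 7.54, 7.49, 7.24 and 7.05 in Raptor-deficient samples at 24 h, against 6.34, 6.67, 6.46 and 6.28 in WT samples, and 7.69, 7.48, 7.42 and 6.94 in Raptor-deficient and 7.42, 7.94, 7.64 and 7.98 in WT samples at 8 h. WT cells fell by 1.31 over that time, the Raptor-deficient change was -0.05 (adjusted p = 0.857), and the interaction was 1.25 ± 0.22 (SE, adjusted p = 0.000841).

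Some genes of nucleotide synthesis fell behind. Of 26 genes of one-carbon and nucleotide synthesis, 5 had a negative interaction (background 4.14%). Nme1 had a positive one, which it kept in 3 of the 16 fits that each left out 1 sample. Of the 5, Rrm1, Rrm2, Tk1 and Tyms belong to the S phase list as well. Rrm2, the regulated subunit of ribonucleotide reductase, was 5.94, 5.81, 6.27 and 5.82 in Raptor-deficient samples at 24 h, against 9.37, 9.44, 9.30 and 9.67 in WT samples. Its interaction was -3.17 ± 0.21 (SE, adjusted p = 4.8e-09), and that of Tyms, thymidylate synthase, was -2.56 ± 0.23 (SE, adjusted p = 2.15e-07).

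Of 16 glycolysis genes, 9 were lower in Raptor-deficient cells at both times with no interaction call (background 7.01%), and 4 fell further behind (background 3.82%). At 24 h 15 members were lower in Raptor-deficient cells and at 8 h 11 were (background 16% and 12.2%). The 4 were Slc16a3, Aldoc, Tpi1 and Pfkl, and no interaction was positive. Pfkl kept its call in 10 of the 16 fits that each left out 1 sample, and with array weights 7 members were called. Slc16a3, a lactate exporter, had an interaction of -1.72 ± 0.24 (SE, adjusted p = 8.69e-05), and its group means were 5.50 ± 0.35 in Raptor-deficient and 7.11 ± 0.40 in WT cells at 24 h (SD, n = 4 each). Tpi1, triosephosphate isomerase, had -0.93 ± 0.18 (SE, adjusted p = 0.0025). Ldha, lactate dehydrogenase A, differed by -0.89 at 24 h and -0.74 at 8 h, both as Raptor-deficient minus WT, with no interaction call (adjusted p = 0.526). Hk2, hexokinase 2, and Slc2a1, a glucose transporter, had interactions of -0.01 (adjusted p = 0.984) and -0.51 (adjusted p = 0.0512). Slc2a1 passed under 6 of 10 alternative settings and in 6 of the 16 fits that each left out 1 sample.

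Hypoxia targets split by direction. Of 16 measured, 3 fell further behind (background 3.82%), 1 caught up (background 1.35%) and the excess of 1 grew (background 1.20%). Egln3 and Bnip3, which encode a prolyl hydroxylase and a mitophagy receptor, had interactions of -1.36 ± 0.35 (SE, adjusted p = 0.0202) and -0.85 ± 0.18 (SE, adjusted p = 0.00574). Bnip3 was 5.81, 5.47, 5.56 and 5.76 in Raptor-deficient samples at 24 h, against 6.50, 6.76, 6.90 and 6.97 in WT samples, and its groups overlapped at 8 h. Ddit4, an inhibitor of mTORC1 signalling that is also counted among ATF4 targets, caught up. It averaged 8.69 ± 0.18 in Raptor-deficient and 8.61 ± 0.05 in WT cells at 24 h, and 7.53 ± 0.19 in Raptor-deficient and 8.35 ± 0.12 in WT cells at 8 h (SD, n = 4 each). Its interaction was 0.90 ± 0.14 (SE, adjusted p = 0.000309). Ndrg1 was higher in Raptor-deficient cells at both times, and that excess grew, with an interaction of 0.70 ± 0.13 (SE, adjusted p = 0.00172). Hif1a, the oxygen-regulated factor whose mRNA was measured here, had a difference of -0.96 ± 0.09 at 24 h and -1.03 ± 0.09 at 8 h, with an interaction of 0.07 ± 0.12 (adjusted p = 0.846).

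Of 28 genes of the ATF4 and amino acid response, 3 had a positive and 2 a negative interaction (background 2.61% and 4.14%). Their median interaction was -0.06. The positive calls were Ddit3, Slc1a5 and Ddit4, and the negative ones Asns and Psat1. Psat1 kept its call in 11 of the 16 fits that each left out 1 sample. Asns fell behind. This asparagine synthetase is a target of the stress factor ATF4. At 24 h it was 3.90, 4.13, 4.24 and 3.83 in Raptor-deficient samples, against 5.61, 5.51, 5.82 and 5.45 in WT samples, and at 8 h 3.59, 4.0, 3.83 and 3.79 in Raptor-deficient and 3.38, 3.82, 3.99 and 4.02 in WT samples. The groups were separate at 24 h and overlapped at 8 h, with an interaction of -1.57 ± 0.19 (SE, adjusted p = 1.13e-05). Levels at 8 h were low. Of 14 fatty acid synthesis genes, 2 had a positive and 3 a negative interaction (background 2.61% and 4.14%), with a median of -0.07. The positive calls were Elovl1 and Acsl5, and the negative ones Scd1, Elovl5 and Fads2. With 1 sample left out, the positive calls were 2 to 3 and the negative ones 1 to 4. Scd1, which introduces a double bond into fatty acids, had an interaction of -1.95 ± 0.34 (SE, adjusted p = 0.001) and was 5.39, 3.88, 4.43 and 3.85 in Raptor-deficient samples at 24 h, against 6.24, 5.97, 6.09 and 6.01 in WT samples. Replicate 1, whose liver genes were raised, was the highest in both genotypes, and without it in both groups Scd1 kept its call.

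Sterol synthesis caught up, with the highest median interaction of the 29 pathway lists at 0.67. Of 19 measured genes, 12 had a positive interaction (background 2.61%) and none a negative one, and all 12 were of the catch-up class (background 1.35%). At 24 h 14 of the 19 were lower in Raptor-deficient cells, against 18 at 8 h (background 16% and 12.2%). The median genotype difference was -0.48 at 24 h and -1.21 at 8 h. Over that time the median change was 0.85 in Raptor-deficient and 0.16 in WT cells. Leaving out 1 sample at a time gave 10 to 13 calls.

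The mean level of the sterol list was 7.06, 6.97, 7.05 and 7.03 in Raptor-deficient samples at 24 h, against 7.45, 7.45, 7.55 and 7.53 in WT samples. Its 8 h levels were 6.24, 6.29, 6.35 and 6.19 in Raptor-deficient samples, against 7.44, 7.45, 7.43 and 7.32 in WT samples. The genotypes did not overlap at either time. WT samples lay close together at both times, and Raptor-deficient samples lay nearer to them at 24 h than at 8 h.

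Msmo1, a methyl sterol oxidase, closed its gap. At 24 h it was 6.98, 6.71, 6.60 and 6.77 in Raptor-deficient samples, against 6.59, 6.71, 7.03 and 6.87 in WT samples. The 8 h values were 5.99, 5.74, 5.96 and 5.11 in Raptor-deficient samples, against 7.68, 7.67, 7.38 and 7.32 in WT samples. The groups overlapped at 24 h and were separate at 8 h, with a 24 h difference of -0.03 ± 0.16. Raptor-deficient cells rose by 1.06 while WT cells fell by 0.71, and the interaction was 1.78 ± 0.22 (SE, adjusted p = 1.98e-05).

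Cyp51, the lanosterol demethylase, narrowed its gap without closing it. At 24 h its levels were 8.81, 8.75, 8.67 and 8.75 in Raptor-deficient samples, against 9.11, 9.25, 9.28 and 9.27 in WT samples, and at 8 h 7.69, 7.74, 7.95 and 7.37 in Raptor-deficient and 9.62, 9.62, 9.65 and 9.54 in WT samples. The genotypes did not overlap at either time. The interaction was 1.44 ± 0.13 (SE, adjusted p = 3.14e-07), and its 3 probe sets were each called. Sqle, squalene epoxidase, was 7.0, 6.93, 7.0 and 6.85 in Raptor-deficient and 7.31, 7.37, 7.30 and 7.52 in WT samples at 24 h, and 6.15, 5.99, 5.86 and 5.85 in Raptor-deficient and 7.53, 7.72, 7.74 and 7.45 in WT samples at 8 h. Its interaction was 1.22 ± 0.12 (SE, adjusted p = 1.11e-06). Idi1, isopentenyl diphosphate isomerase, had 1.16 ± 0.13 (SE, adjusted p = 3.83e-06), from a Raptor-deficient change of 1.17 and a WT change of 0.01.

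Srebf2, which encodes the transcription factor that drives this pathway, caught up as well. It was 9.53, 9.65, 9.70 and 9.55 in Raptor-deficient samples at 24 h, against 9.55, 9.41, 9.57 and 9.79 in WT samples, and 9.12, 9.28, 9.14 and 9.20 in Raptor-deficient and 9.65, 9.71, 9.84 and 9.70 in WT samples at 8 h. The interaction was 0.57 ± 0.11 (SE, adjusted p = 0.00331). Insig1, a sterol sensor whose gene is a target of that factor, had 0.71 ± 0.14 (SE, adjusted p = 0.00238). Fdps, Nsdhl, Hsd17b7, Stard4, Mvk, Tm7sf2 and Ebp had no interaction call. The Raptor-deficient minus WT difference of Ebp was -0.67 at 24 h and -0.56 at 8 h, and that of Fdps was -1.07 at 24 h and -1.53 at 8 h.

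**Figure D3:**
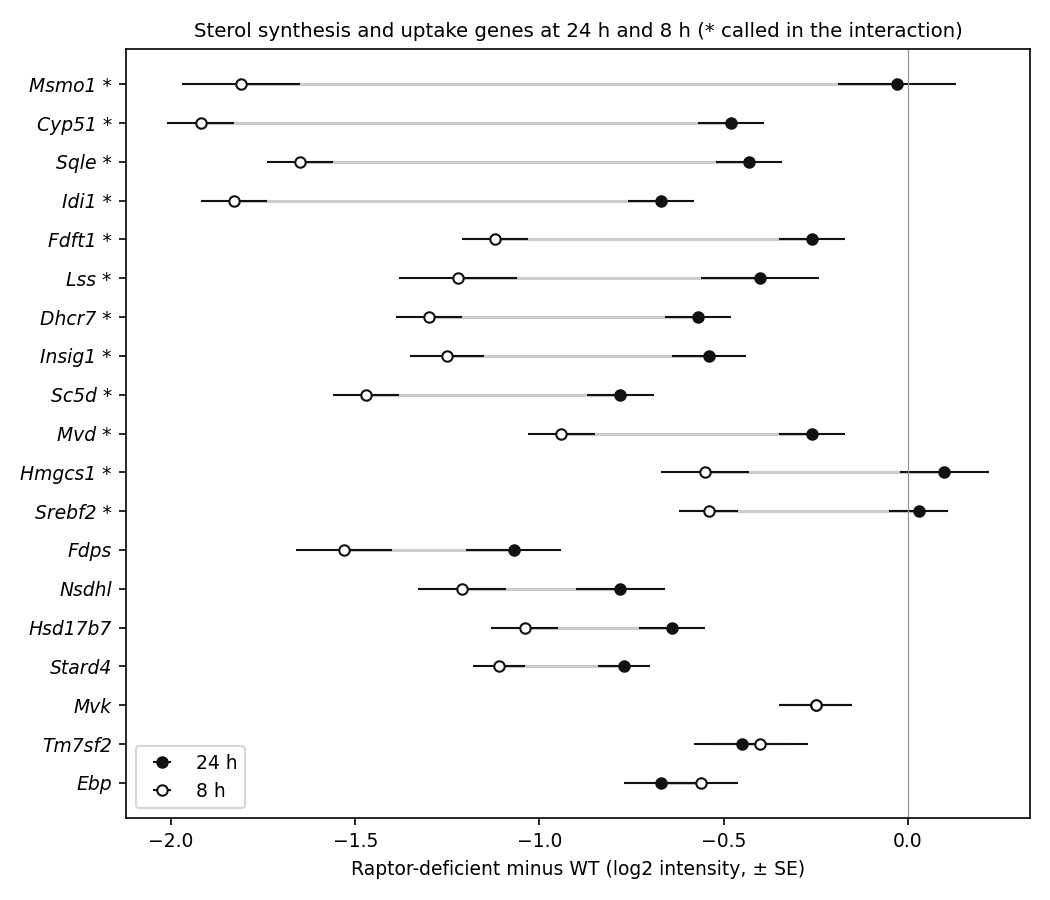
Raptor-deficient minus WT difference (horizontal axis, log2 intensity, bars are SE of the fit) at 24 h (filled) and 8 h (open) for 19 sterol genes, ordered by interaction, with a star on the 12 called. Msmo1 moves furthest towards 0, and the lowest 3 genes, Mvk, Tm7sf2 and Ebp, show about the same difference at both times.

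The promoter windows of Msmo1 and Cyp51 are printed as the sterol genes with the largest interactions. Capitals mark CCAAT, the box bound by the factor NF-Y, and neither window holds an E2F or CHR match. Msmo1 lies at chr8:64733529-64733828 and Cyp51 at chr5:4104648-4104947, both on the minus strand.
Msmo1: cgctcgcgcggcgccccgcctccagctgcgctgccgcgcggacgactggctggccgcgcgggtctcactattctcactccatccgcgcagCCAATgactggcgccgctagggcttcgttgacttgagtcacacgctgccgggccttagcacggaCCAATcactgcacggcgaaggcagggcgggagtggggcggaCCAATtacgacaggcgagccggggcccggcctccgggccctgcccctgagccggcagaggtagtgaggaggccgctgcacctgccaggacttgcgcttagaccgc
Cyp51: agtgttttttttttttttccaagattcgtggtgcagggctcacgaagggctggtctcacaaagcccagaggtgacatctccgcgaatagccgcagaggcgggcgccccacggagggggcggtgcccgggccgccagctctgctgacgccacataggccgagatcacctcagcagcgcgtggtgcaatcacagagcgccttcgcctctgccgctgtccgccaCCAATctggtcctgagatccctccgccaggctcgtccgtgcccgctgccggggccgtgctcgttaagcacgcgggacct

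CCAAT was found in the windows of 15 of 15 sterol genes with one (100%), against 42.3% of tested genes, 71.9% of mitosis and G2 genes and 60.4% of DNA replication and S phase genes. The sterol regulatory element, searched as TCACNCCAC on both strands, was found in 1 of the 15 (6.67%), against 1.5% of tested genes. The one window was that of Hmgcs1. CCAAT was common in a list that caught up and in lists that fell behind, and its share was 48.0% among all genes that caught up and 53.8% among all that fell further behind.

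Xbp1, a transcription factor of the unfolded protein response, overtook WT. It was 9.15, 8.87, 9.04 and 9.02 in Raptor-deficient samples at 24 h, against 8.70, 8.51, 8.80 and 8.75 in WT samples. Levels at 8 h were 8.06, 7.74, 7.72 and 7.75 in Raptor-deficient samples, against 8.55, 8.74, 8.85 and 8.63 in WT samples. Every Raptor-deficient sample was above every WT sample at 24 h and below every one at 8 h. The change over that time was 1.20 in Raptor-deficient and 0.00 (adjusted p = 0.985) in WT cells. The interaction was 1.21 ± 0.13 (SE, adjusted p = 4.42e-06), with 4 of 4 probe sets called. Of 26 genes of this response 4 had a positive interaction (background 2.61%) and none a negative one. Calr, the chaperone calreticulin, had 0.44 ± 0.10 (SE, adjusted p = 0.0112). In this list 12 members were lower at both times with no interaction call (background 7.01%), among them Hspa5 at -0.32 at 24 h and -0.34 at 8 h. In the fit of all 24 samples, 2 members were called, and the adjusted p of Calr was 0.0783.

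Some genes of antigen receptor signalling and helper T cell identity caught up. Of 12 alpha beta CD4 T cell markers, 6 had a positive interaction (background 2.61%) and none a negative one, and 5 of the 6 were in the catch-up class (background 1.35%). Zap70, the kinase recruited to the receptor, was 8.78, 8.78, 8.84 and 8.73 in Raptor-deficient samples at 24 h, against 8.57, 8.60, 8.75 and 8.76 in WT samples. At 8 h it was 8.26, 8.40, 8.64 and 8.15 in Raptor-deficient samples, against 8.90, 9.10, 8.99 and 9.14 in WT samples. The groups overlapped at 24 h and were separate at 8 h, with an interaction of 0.78 ± 0.13 (SE, adjusted p = 0.000598). Cd4 had 0.50 ± 0.10 (SE, adjusted p = 0.00352), with a rise of 1.11 in Raptor-deficient and 0.61 in WT cells. With all 24 samples in the fit 2 of the 12 were called. Itgal, an integrin chain of LFA-1 from the list of adhesion receptors, was 9.96, 9.88, 10.07 and 9.97 in Raptor-deficient samples at 24 h, against 9.71, 9.77, 9.75 and 9.92 in WT samples, and 8.91, 8.93, 9.18 and 8.92 in Raptor-deficient and 9.81, 9.68, 9.83 and 9.79 in WT samples at 8 h, with an interaction of 0.97 ± 0.11 (SE, adjusted p = 5.5e-06).

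Ikzf3, Prickle1 and Fasl were also among the largest interactions of the catch-up class. Ikzf3, which encodes the lymphoid factor Aiolos, was 8.70, 8.50, 8.62 and 8.59 in Raptor-deficient samples at 24 h, against 8.17, 7.90, 7.92 and 7.82 in WT samples, and 8.58, 8.39, 8.57 and 8.14 in Raptor-deficient and 9.28, 9.22, 9.23 and 9.11 in WT samples at 8 h. It changed places as WT cells fell by 1.26 and Raptor-deficient cells had a change of 0.18 (adjusted p = 0.192), and the interaction was 1.44 ± 0.14 (SE, adjusted p = 4.74e-07). Prickle1, a planar polarity protein, rose in both genotypes, by 2.44 in Raptor-deficient and 1.02 in WT cells, with an interaction of 1.42 ± 0.13 (SE, adjusted p = 2.93e-07). Fasl, the death ligand, was 4.53, 4.87, 5.12 and 5.26 in Raptor-deficient samples at 24 h, against 6.17, 6.21, 6.23 and 6.32 in WT samples. Its 8 h levels were 4.26, 3.71, 3.72 and 3.87 in Raptor-deficient samples, against 6.56, 6.92, 6.46 and 6.37 in WT samples. It narrowed and stayed well apart, with an interaction of 1.40 ± 0.21 (SE, adjusted p = 0.000178), and 1 of its 2 probe sets was called.

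Oxidative phosphorylation and proteasome genes had a smaller median deficit at 24 h than at 8 h, with few called interactions. Of 59 genes of oxidative phosphorylation, 35 were lower in Raptor-deficient cells at 24 h and 53 at 8 h (background 16% and 12.2%), and the median difference was -0.27 at 24 h and -0.48 at 8 h. The interaction was positive for 6 (background 2.61%) and negative for none. Atp5d, a subunit of ATP synthase, was 10.88, 10.97, 11.09 and 11.09 in Raptor-deficient samples at 24 h, against 11.04, 10.99, 11.05 and 10.99 in WT samples. The 8 h values were 10.17, 10.29, 10.37 and 10.34 in Raptor-deficient samples, against 10.71, 10.70, 10.91 and 10.85 in WT samples, and its interaction was 0.49 ± 0.10 (SE, adjusted p = 0.0054). The number of calls was 2 with all 24 samples in the fit, 11 after a filter on dim genes and 17 with an intensity trend and robust prior.

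For the proteasome, 24 of 31 genes were lower at 24 h and 30 at 8 h (background 16% and 12.2%), with medians of -0.33 at 24 h and -0.54 at 8 h. The interaction was positive for 5 (background 2.61%), among them Psma5 at 0.49 ± 0.12 (SE, adjusted p = 0.0131). The count of 5 was 1 to 3 without any one of Raptor-deficient replicates 2, 3 and 4 or WT replicates 2 and 4 at 24 h, or of Raptor-deficient replicates 1, 2 and 4 or WT replicates 2, 3 and 4 at 8 h. It was 8 with array medians centred and 1 with all 24 samples in the fit.

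Genes of the mitochondrial ribosome, of ribosome biogenesis and of tRNA synthetases and translation factors were mostly lower in Raptor-deficient cells at both times (background 16% at 24 h and 12.2% at 8 h), with few interaction calls. Of 71 mitochondrial ribosome genes, 55 were lower at 24 h and 54 at 8 h, with a median difference of -0.41 at both times. Of the 71, 47 were lower at both with no interaction call (background 7.01%). Ribosome biogenesis had 39 of 66 lower at 24 h and 51 at 8 h, with 38 lower at both and no interaction call (background 7.01%). For tRNA synthetases and translation factors the counts were 25 of 33 at 24 h and 27 at 8 h. In that list 21 were lower at both with no interaction call (background 7.01%). The interaction was called for 1, 2 and 1 members of these lists, all positive, against a background of 2.61%. With 1 sample left out the positive calls were 0 to 2, 1 to 3 and 0 to 1. The cytosolic ribosome differed from these lists in direction. Of its 52 genes, 11 were higher and 1 lower in Raptor-deficient cells at 24 h, and 9 were higher and 1 lower at 8 h, against 10.6% and 5.87% of all genes that were higher. The median differences were 0.08 at 24 h and 0.09 at 8 h. Among these 52 genes and 24 PI3K, Akt and mTOR components no interaction was called by limma, and at an unadjusted p under 0.05 there were 0 in the first list and 5 positive and 1 negative in the second.

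**Figure D4:**
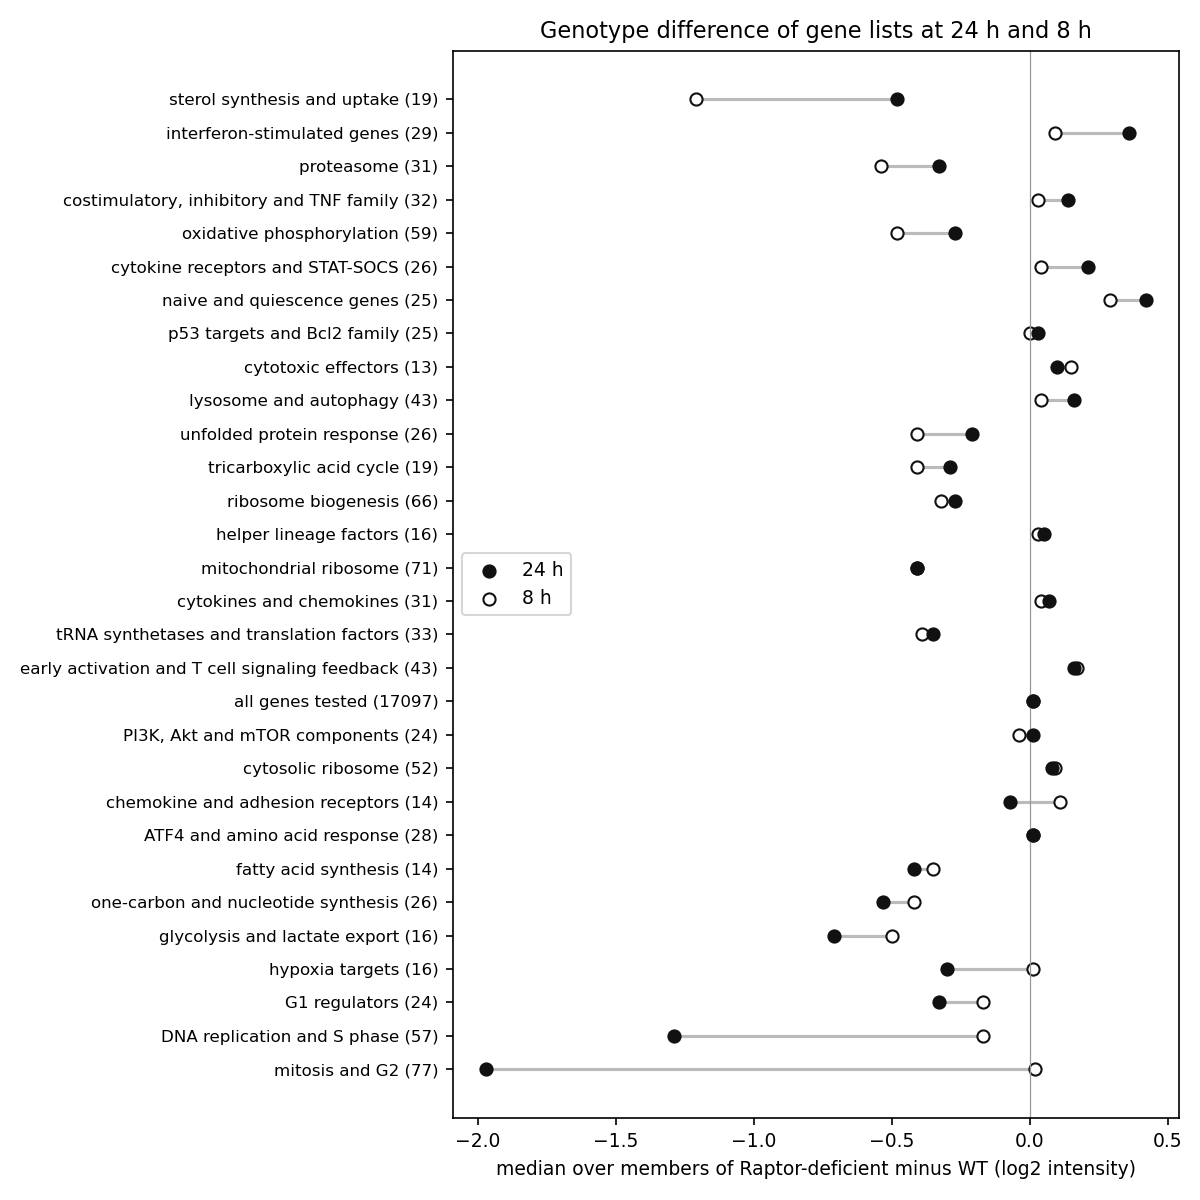
Median over list members of Raptor-deficient minus WT (horizontal axis, log2 intensity) at 24 h (filled) and 8 h (open) for 29 gene lists and all 17097 genes, with the number of measured members, ordered by median interaction. Sterol synthesis, at the top, stands at -0.48 at 24 h, against -1.21 at 8 h, mitosis and G2, at the bottom, at -1.97 against 0.02, and the mitochondrial ribosome at -0.41 both times.

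Several activation genes had no interaction call either. Il2, the T cell growth factor, was 9.88, 10.07, 10.39 and 10.14 in Raptor-deficient samples at 24 h, against 10.84, 10.84, 11.06 and 10.82 in WT samples, and 10.31, 10.75, 11.04 and 10.81 in Raptor-deficient and 11.16, 11.52, 11.81 and 11.74 in WT samples at 8 h. It was lower in Raptor-deficient cells both times and fell in both genotypes, with an interaction of 0.06 ± 0.21 (adjusted p = 0.929). Irf4, a factor induced by the antigen receptor, had 0.05 ± 0.11, and Myc had 0.37 ± 0.13 (adjusted p = 0.115). Satb1, a chromatin organiser of T cells, was higher in Raptor-deficient cells by 1.15 at 24 h and 1.10 at 8 h. The lineage factors Gata3 and Tbx21 had interactions of 0.59 ± 0.23 (adjusted p = 0.163) and -1.19 ± 0.55 (adjusted p = 0.252).

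Other lists had few calls in either direction. Of 43 genes of early activation and signalling feedback, 22 fell between 8 h and 24 h in each genotype (background 9.92% in Raptor-deficient and 13.4% in WT cells). In this list 19 were higher in Raptor-deficient cells at 24 h and 18 at 8 h (background 10.6% and 5.87%). The interaction of the 43 genes was positive for 4 and negative for 3 (background 2.61% and 4.14%). The 4 became 2 without Raptor-deficient replicate 1 or 3 or WT replicate 2 at 24 h, or without Raptor-deficient replicate 4 at 8 h, 0 with all 24 samples in the fit and 7 with the replicate block. The 3 became 5 with a filter on dim genes and 1 with all 24 samples. Of 25 naive and quiescence genes, 17 were higher in Raptor-deficient cells at 24 h and 10 at 8 h (background 10.6% and 5.87%), and 2 had a positive interaction (background 2.61%). Those 2 calls were 1 to 3 in the fits that each left out 1 sample, 0 with all 24 samples, 1 with cyclic loess and 4 with the replicate block. They were 1 without Raptor-deficient replicates 1, 2, 3 or 4 or WT replicates 3 or 4 at 24 h, or Raptor-deficient replicates 1 or 2 or WT replicate 4 at 8 h. Igfbp4, one of those 2, encodes a binding protein of insulin-like growth factors and is high in naive T cells. It averaged 9.66 ± 0.16 in Raptor-deficient and 8.97 ± 0.11 in WT cells at 24 h, and 5.71 ± 0.24 in Raptor-deficient and 6.06 ± 0.34 in WT cells at 8 h (SD, n = 4 each). Its interaction was 1.04 ± 0.20 (SE, adjusted p = 0.00236), with an adjusted p of 0.172 when all 24 samples were fitted. Of 16 helper lineage factors 2 were positive and 2 negative, against a background of 2.61% and 4.14%. These counts stayed at 2 in each fit that left out 1 sample and were 1 and 1 with all 24 samples.

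The excess of Raptor-deficient over WT cells grew for 205 genes, of which 171 had no called difference at 8 h and 34 were already higher. In 81 WT cells fell while the Raptor-deficient change was not called, in 44 Raptor-deficient cells rose alone, and in 36 both fell. Pathway lists held 34 of the 205. In the fit of all 24 samples 114 genes were in this class, 105 of them shared.

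Xcl1, the chemokine lymphotactin, had the largest 24 h difference of the named genes in this class. At 24 h it was 10.76, 11.05, 10.91 and 10.76 in Raptor-deficient samples, against 7.34, 7.35, 7.44 and 7.08 in WT samples. Levels at 8 h were 10.79, 11.04, 11.03 and 10.74 in Raptor-deficient samples, against 9.26, 9.23, 9.21 and 9.04 in WT samples. WT cells fell by 1.88 and the Raptor-deficient change was -0.03 (adjusted p = 0.854). The 24 h difference was 3.56 ± 0.10 and the interaction was 1.85 ± 0.14 (SE, adjusted p = 1.8e-08). Akr1c18, an enzyme that inactivates progesterone, had the highest interaction of all genes. It was 8.56, 8.16, 8.85 and 8.51 in Raptor-deficient samples at 24 h, against 5.57, 5.59, 5.81 and 6.45 in WT samples. At 8 h it was 8.17, 7.81, 8.60 and 8.17 in Raptor-deficient samples, against 7.41, 7.41, 7.85 and 8.23 in WT samples, which overlapped, and its interaction was 2.20 ± 0.30 (SE, adjusted p = 5.49e-05).

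**Figure D5:**
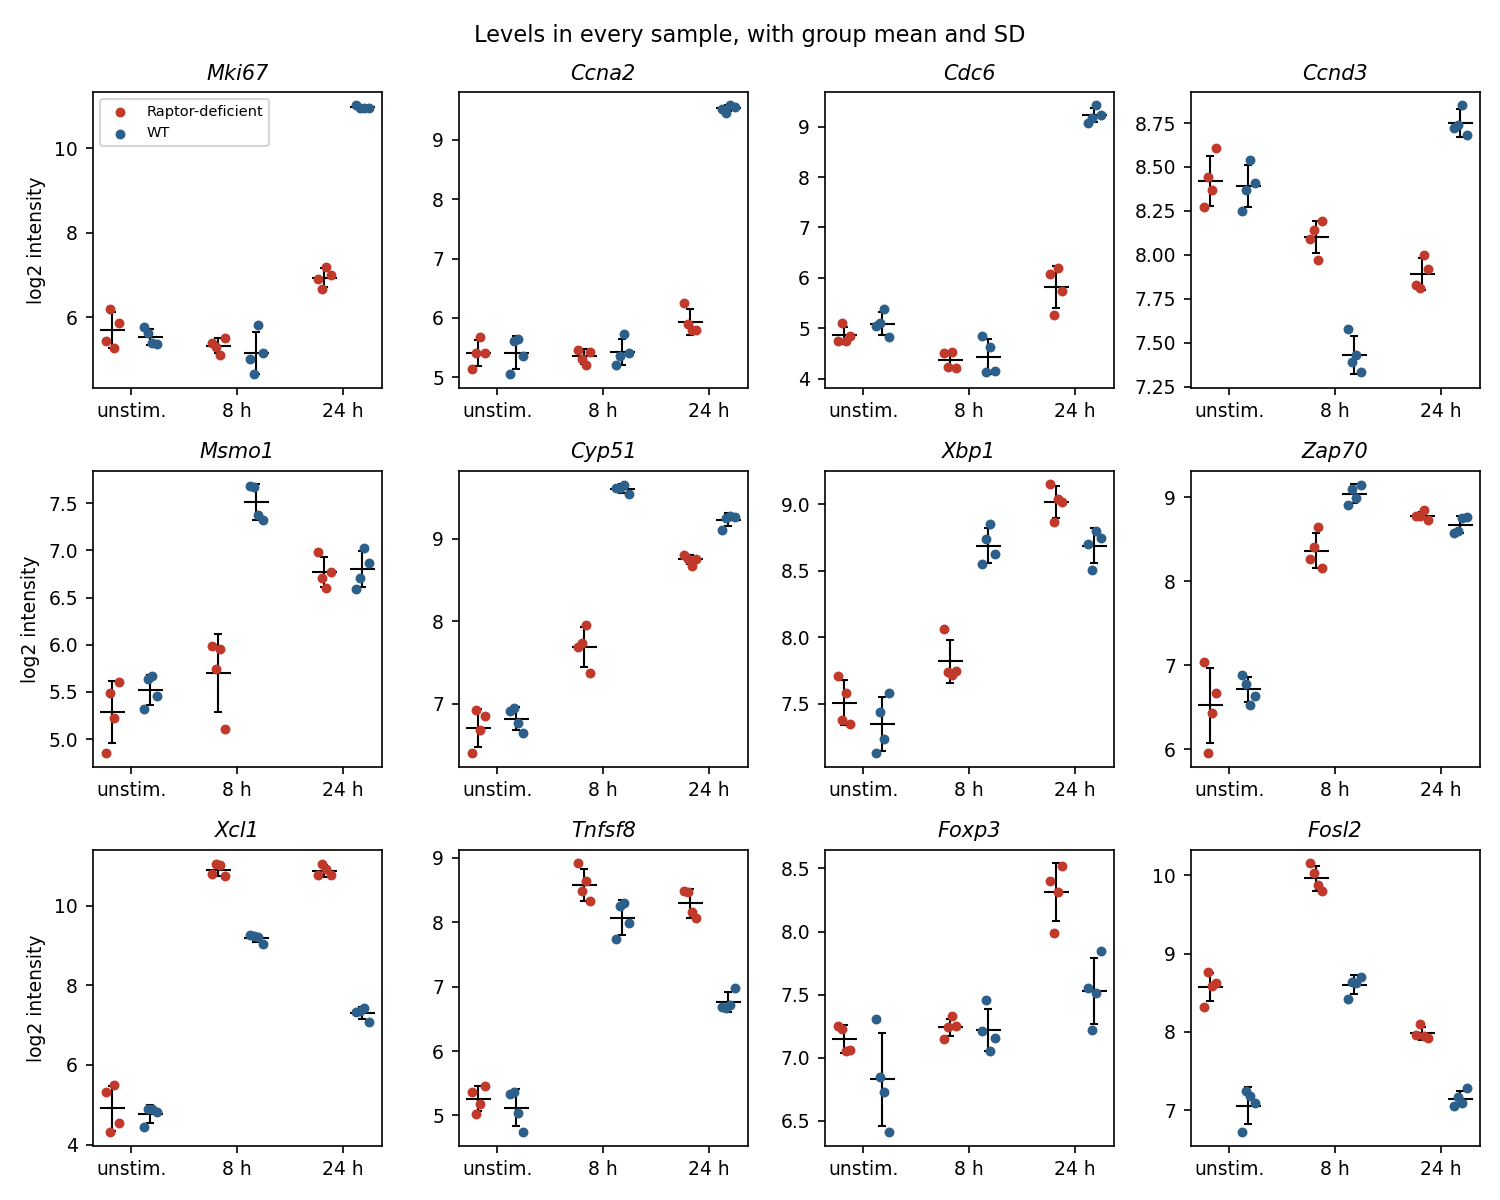
Log2 intensity (vertical axis) of 12 genes in every sample, unstimulated and at 8 h and 24 h, with Raptor-deficient samples (red) left of WT samples (blue). Black bars are group means with SD, n = 4. Mki67, Ccna2 and Cdc6 rise more in WT cells, Msmo1, Cyp51, Xbp1 and Zap70 move up to or towards WT, and Xcl1 and Tnfsf8 fall between 8 h and 24 h, by the test, in WT cells alone.

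Members of the TNF and costimulatory families were in this class. Of 32 measured, 10 had a positive and 3 a negative interaction (background 2.61% and 4.14%), and the excess grew for 8 of the 10 (background 1.20%). Tnfsf8, the ligand CD30L, was 8.49, 8.47, 8.15 and 8.06 in Raptor-deficient samples at 24 h, against 6.68, 6.66, 6.72 and 6.97 in WT samples, and 8.91, 8.48, 8.63 and 8.32 in Raptor-deficient and 7.73, 8.25, 8.30 and 7.99 in WT samples at 8 h. Its interaction was 1.02 ± 0.20 (SE, adjusted p = 0.00262). Tnfrsf9, the receptor 4-1BB, had 0.56 ± 0.10 (SE, adjusted p = 0.00156), while its ligand gene Tnfsf9 moved the other way with -0.84 ± 0.14 (SE, adjusted p = 0.000361). With all 24 samples in the fit 4 members were positive and 1 negative, and the adjusted p was 0.102 for Tnfrsf9 and 0.239 for Tnfsf9.

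Cytokine receptor and STAT genes followed. Of 26, 7 had a positive interaction (background 2.61%) and none a negative one, and the excess grew for 6 (background 1.20%). Stat5a, which carries signals of the interleukin 2 receptor, was 9.93, 9.73, 9.99 and 9.83 in Raptor-deficient samples at 24 h, against 8.93, 8.84, 9.04 and 8.90 in WT samples. Its 8 h levels were 9.53, 9.46, 9.62 and 9.33 in Raptor-deficient samples, against 9.08, 9.19, 9.11 and 9.11 in WT samples, and the interaction was 0.58 ± 0.11 (SE, adjusted p = 0.00201). Its target Cish, a feedback inhibitor, had 0.72 ± 0.18 (SE, adjusted p = 0.0153) and the target kinase Pim1 had 0.51 ± 0.12 (SE, adjusted p = 0.00915). Il2rb, the receptor's beta chain, was the member that caught up, with 0.69 ± 0.16 (SE, adjusted p = 0.00924). In the fit of all 24 samples 4 members were called.

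Markers of regulatory T cells were among these genes. The sort excluded CD25+ cells, and whether regulatory T cells were present was not tested. Of 8 measured, 4 had a positive interaction (background 2.61%), Foxp3, Il2ra, Ikzf4 and Tnfrsf18, and none a negative one. Each of the 4 also stands in a pathway list. At 24 h 5 of the 8 were higher and 1 lower in Raptor-deficient cells (background 10.6% and 16%). At 8 h 1 was higher and 1 lower (background 5.87% and 12.2%), and 1 was lower at both times with no interaction call (background 7.01%). Ikzf4 kept its call in 5 of the 16 fits that each left out 1 sample. Foxp3, the factor that defines the lineage, was 8.40, 7.99, 8.31 and 8.52 in Raptor-deficient samples at 24 h, against 7.55, 7.22, 7.51 and 7.85 in WT samples. The 8 h values were 7.15, 7.24, 7.33 and 7.25 in Raptor-deficient samples, against 7.21, 7.46, 7.05 and 7.16 in WT samples. The groups were separate at 24 h and overlapped at 8 h, and the interaction was 0.75 ± 0.18 (SE, adjusted p = 0.0118). Il2ra, the gene for CD25, was 10.90, 10.92, 10.90 and 10.88 in Raptor-deficient and 10.39, 10.44, 10.42 and 10.26 in WT samples at 24 h, with an interaction of 0.41 ± 0.10 (SE, adjusted p = 0.0206). With all 24 samples in the fit 1 of the 8 was called, and the adjusted p of Il2ra was 0.688. Without replicate 1 of both 24 h groups it was 0.0542, and 2 of the 8 were called.

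Bcl6, the transcriptional repressor that defines follicular helper T cells, fell in both genotypes and less in Raptor-deficient cells. It was 8.74, 8.72, 8.53 and 8.71 in Raptor-deficient samples at 24 h, against 7.72, 7.24, 7.34 and 7.38 in WT samples. Its interaction was 0.56 ± 0.14 (SE, adjusted p = 0.0179), with an adjusted p of 0.0828 when all 24 samples were fitted. Id2, an inhibitor of E proteins, changed places in the other direction. It averaged 7.03 ± 0.13 in Raptor-deficient and 7.31 ± 0.19 in WT cells at 24 h, and 7.42 ± 0.12 in Raptor-deficient and 6.71 ± 0.13 in WT cells at 8 h (SD, n = 4 each), for an interaction of -0.99 ± 0.14 (SE, adjusted p = 8.69e-05).

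Targets of p53 and the Bcl2 family gave 4 positive and 0 negative calls of 25 (background 2.61% and 4.14%). The 4 were all of growing excess (background 1.20%): Cdkn1a, Trp53inp1, Phlda3 and Bcl2. Trp53inp1, a stress protein, had 0.82 ± 0.13 (SE, adjusted p = 0.000217), from a fall of 0.53 in Raptor-deficient and 1.35 in WT cells. Bcl2, the survival factor, averaged 10.57 ± 0.06 in Raptor-deficient and 9.60 ± 0.04 in WT cells at 24 h (SD, n = 4 each), with an interaction of 0.53 ± 0.11 (SE, adjusted p = 0.00557). In the fit of all 24 samples its adjusted p was 0.08.

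Lysosome and autophagy genes gave 4 positive and 0 negative calls of 43 (background 2.61% and 4.14%). Fnip1, a partner of folliculin in nutrient sensing at the lysosome, had 0.67 ± 0.13 (SE, adjusted p = 0.00208), with Raptor-deficient samples at 8.32 to 8.49 and WT samples at 7.37 to 7.65 at 24 h. Lamp2, a lysosomal membrane protein, crossed, with 0.86 ± 0.12 (SE, adjusted p = 9.16e-05) and 3 of 3 probe sets called. With a filter on dim genes, or with an intensity trend and robust prior, 7 members were called. Trpm1, a cation channel gene outside the lists, was 6.16, 6.19, 6.14 and 6.58 in Raptor-deficient samples at 24 h, against 4.15, 4.21, 4.33 and 4.35 in WT samples, and 5.0, 4.99, 4.75 and 5.08 in Raptor-deficient and 4.61, 4.43, 4.36 and 4.63 in WT samples at 8 h. Its interaction was 1.56 ± 0.14 (SE, adjusted p = 3.38e-07), and 1 of its 2 probe sets was called.

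Interferon-stimulated genes were higher in Raptor-deficient cells at 24 h for 12 of 29 members (background 10.6%) and at 8 h for 3 (background 5.87%). Their interaction was positive for 4 and negative for 2 (background 2.61% and 4.14%). Ifit1 was 7.84, 7.49, 7.91 and 7.21 in Raptor-deficient samples at 24 h, against 6.17, 6.19, 6.09 and 5.11 in WT samples. At 8 h its groups overlapped, at 5.67 to 6.31 in Raptor-deficient and 5.40 to 6.27 in WT samples, and the interaction was 1.69 ± 0.32 (SE, adjusted p = 0.0022). WT replicate 4 was the lowest at both times. Slfn5, an interferon-induced gene outside the list, had 1.49 ± 0.18 (SE, adjusted p = 1.2e-05). Ifih1, an RNA sensor, moved the other way with -0.83 ± 0.18 (SE, adjusted p = 0.00616). The 4 positive calls became 2 without Raptor-deficient replicate 4 or WT replicate 2 at 8 h, and the 2 negative calls became 1 without any one sample other than Raptor-deficient replicate 3 at 24 h and replicate 4 of both genotypes at 8 h.

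The excess shrank for 47 genes, of which 40 no longer differed by the test at 24 h and 7 were still higher. The class was largest without WT replicate 1 at 8 h, which had the largest residual SD of the stimulated arrays at 0.172. It then held 77 genes, 40 of them shared with the 47. With all 24 samples in the fit 28 of the 47 stayed in the class, and without replicate 1 of both 24 h groups 33 did. Ramp3, a receptor accessory protein, was 5.70, 5.53, 5.63 and 5.53 in Raptor-deficient samples at 24 h, against 5.06, 5.14, 4.82 and 5.03 in WT samples. Levels at 8 h were 7.94, 7.87, 7.76 and 7.59 in Raptor-deficient samples, against 5.70, 5.93, 6.05 and 6.27 in WT samples. The difference was 0.59 ± 0.11 at 24 h, against 1.80 ± 0.11 at 8 h, with an interaction of -1.21 ± 0.15 (SE, adjusted p = 2.28e-05).

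Transcription factors of early activation were in this class. Fosl2, a member of the AP-1 family, was 7.96, 8.10, 7.95 and 7.92 in Raptor-deficient samples at 24 h, against 7.06, 7.17, 7.09 and 7.29 in WT samples. At 8 h it was 10.15, 10.03, 9.87 and 9.80 in Raptor-deficient samples, against 8.42, 8.64, 8.63 and 8.70 in WT samples. It was higher in Raptor-deficient cells both times without overlap, as it was in unstimulated cells, where it averaged 8.57 ± 0.18 in Raptor-deficient and 7.06 ± 0.24 in WT cells (SD, n = 4 each). The interaction was -0.54 ± 0.12 (SE, adjusted p = 0.0105). Bhlhe40, a repressor induced by activation, narrowed as WT cells rose by 0.57 while Raptor-deficient cells had no called change, with an interaction of -0.64 ± 0.15 (SE, adjusted p = 0.0118) and an adjusted p of 0.105 when all 24 samples were fitted. Tfdp2, a dimer partner of E2F factors, had -0.73 ± 0.15 (SE, adjusted p = 0.00514), and Arf2 had -0.85 ± 0.19 (SE, adjusted p = 0.00685). Rbpms, Rwdd3 and Bend4 had interactions of -1.10, -0.75 and -0.74. The adjusted p of Rbpms was 0.0635 without replicate 1 of both 24 h groups, and that of Rwdd3 0.217 with the mean of all probe sets.

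Most called genes lay outside the lists. The lists held 149 of the 653 genes that fell further behind, 43 of the 230 that caught up, 34 of the 205 with a growing and 8 of the 47 with a shrinking excess. Of 596 called genes with several probe sets, 293 had at least 2 probe sets called in the same direction and 2 had called probe sets of opposite direction.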

How the data were processed

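RNA of naive CD4+ T cells (20 ng per sample, amplified) was measured on Affymetrix HT MG-430 PM arrays, 24 in all. The deposited values are log2 intensities of 45141 probe sets, made by the authors with RMA and Partek 6.5, whose roles are not stated, per the submitters' processing notes. A genome build is not given in the sources used here. RMA brings arrays close to the same distribution, so a change in total RNA per cell is not seen. Sorted values still differed between arrays by up to 0.248. The values ran from 1.64 to 13.79, and array medians from 5.15 to 5.29. The number of arrays limits the precision.

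Platform annotation gave 28898 probe sets one symbol, 551 several and 15692 none; 28689 were matched by Entrez ID to RefSeq GRCm38.p6. Each of 17097 genes, 7180 of them with several probe sets, was represented by its brightest one on average. limma 3.58.1 (R 4.3.3) fitted the 4 group means of 16 arrays, without a block, with Benjamini-Hochberg adjustment over all genes and a threshold of 0.05. Tested on simulated data, the interaction fit over 17097 genes found 88.1% of 67 genes given a 2-fold change and 53.7% of 67 given a 1.5-fold one, and made 7 false calls. Simulated samples were independent, and few genes were changed, in Raptor-deficient cells at 24 h alone. These figures therefore need not hold for the measured arrays.

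Members, 29 pathway lists and 10 cell type lists were chosen with earlier results of these data known. Genes named for their class were called, reached the median level in a group and kept their call without any one sample. They were the 8 with the largest interaction that caught up, the 8 that fell behind and the 6 of each excess class. Up to 4 called members per list and a fixed set, called or not, were selected as named genes without the other conditions. Not all of the genes so selected are described in the text. Other genes in the text complete a list's count or, such as Cdc6 and Insig1, were chosen outside these rules. Same-numbered samples were checked for pairing by their deviations from group means: 12 of 24 pairs had r over 0.1 (range -0.05 to 0.36). Of the 16 samples, 9 correlated best with their own number in every other group, so same-numbered samples share some deviation. The labels do not state pairing, so the main fit had no block, and fits with a block are given among the alternatives. Alternatives left out samples, added the unstimulated arrays, and changed the prior, weights, probe sets, filter, scaling and block.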

Additional observations from a re-analysis of the deposited data

Results flagged for a closer look

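The effect of time differed between the genotypes for 1155 genes by the interaction test itself. In 16 of 232 groups of 4 samples, over 58 genes checked, a single sample lay apart from the other 3 by Dixon's criterion, which chance alone does in about 1 of 20 groups. In Raptor-deficient cells at 24 h these were Rwdd3 in replicate 1 at 5.34 (others 5.68 to 5.73), Trpm1 in replicate 4 at 6.58 (others 6.14 to 6.19), Slc2a1 in replicate 3 at 9.16 (others 8.79 to 8.84) and Psat1 in replicate 3 at 9.76 (others 9.45 to 9.47). In WT cells at 24 h they were Cyp51 in replicate 1 at 9.11 (others 9.25 to 9.28), Mki67 in replicate 1 at 11.02 (others 10.96 to 10.97), Hk2 in replicate 1 at 9.10 (others 9.30 to 9.33), Il2 in replicate 3 at 11.06 (others 10.82 to 10.84), Ifit1 in replicate 4 at 5.11 (others 6.09 to 6.19) and Satb1 in replicate 4 at 9.07 (others 8.91 to 8.93). In Raptor-deficient cells at 8 h they were Xbp1 in replicate 1 at 8.06 (others 7.72 to 7.75), Cenpf in replicate 4 at 3.41 (others 3.56 to 3.58) and Hif1a in replicate 4 at 8.94 (others 9.12 to 9.16). In WT cells at 8 h they were Aurkb in replicate 2 at 4.0 (others 3.73 to 3.78), Tbx21 in replicate 4 at 4.57 (others 5.90 to 5.98) and Rgs1 in replicate 1 at 8.34 (others 8.67 to 8.69). The interactions of Cyp51, Mki67, Xbp1, Cenpf, Aurkb, Ifit1 and Trpm1 passed without any one of the 16 samples.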

How the results depend on the processing

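None of the 114 named genes with an interaction call changed direction under any of 26 alternatives. Changes of sign in genes without a call were not counted. The 4 class counts stayed within 1.5 times of the values reported except as follows. With all 24 samples in the fit, the genes with a positive interaction numbered 227, those that caught up 107 and those whose excess grew 114. After a filter that kept genes with at least 1 of 4 group means at or above the median, 350 caught up. Without 1 sample at a time, the called interactions numbered 978 to 1186, the positive ones 348 to 453, the negative ones 610 to 733, genes that caught up 170 to 254, genes that fell further behind 566 to 663, genes whose excess grew 162 to 218 and genes whose excess shrank 39 to 77. The highest of these last was without WT replicate 1 at 8 h. With the replicate number as a block 1305 genes were called, 521 positive and 784 negative, and 1131 with the block nested within genotype. Of the 16 samples, 9 correlated best with their own number in every other group, and the block is not read as pairing. Without replicate 1 of both 24 h groups, whose liver genes were raised, 967 genes were called. The share of positive among called interactions was 38.7%, 48.3% with array medians centred and 29.3% with all 24 samples. Of 137 genes selected as named genes and tested, some of them not described above, 114 were called and 70 of those kept their call under every alternative. Where a call was lost the cause was not tested. Levels under the median of 5.51 limit what folds can be read, as do 4 samples a group.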
